A study of Mus musculus with 3 samples.

Results

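The genes described are 8 genes of Schwann cells and their myelin: Sox10, S100b, Pmp22, Mbp, Ncmap, Mag, Cnp and Prx. They were taken by symbol, with 1 row each, from tables of 42258 genes measured by RNA sequencing of mouse gastrocnemius and plantaris muscle. Muscle came from male mice in 3 groups. The young group (strain labelled C57BL/7J) held 3 mice aged 24 weeks, whose diet is not given. The other groups (strain labelled C57BL/6J) held 6 mice each, aged 87 weeks, which had been fed from 75 weeks of age for 12 weeks. Their food either had no eicosapentaenoic acid (EPA, a long-chain fatty acid of fish oil), called aged control here, or contained 1 wt% of it, called aged EPA. No genotype or transgene is given for any group. RNA was pooled within each group and gave 1 library, so values have no spread between mice, and no difference below carries a test or p-value.

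Schwann cells wrap the axons of peripheral nerves, and those around large axons build myelin, a stack of membrane that speeds conduction. Skeletal muscle is crossed by branches of motor and sensory nerves, so whole-muscle RNA contains a small Schwann cell share. The transcription factor Sox10 is needed in the lineage at every stage and, with Egr2, activates myelin genes. Myelin has a compact part, to which Pmp22 and Mbp belong, and a noncompact part at incisures, paranodes and the inner and outer faces, where Ncmap, Mag, Cnp and Prx proteins lie. Several of these genes are not restricted to Schwann cells: Pmp22 and Cnp are transcribed widely, S100b also in adipocytes and Prx also in endothelium.

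All coordinates are those of GRCm38, the build named in the submitters' processing notes. Sox10 lies on chromosome 15 (79154908 to 79165240, minus strand), S100b on chromosome 10 (76253853 to 76261159, plus), Pmp22 on chromosome 11 (63128982 to 63159547, plus) and Cnp on the same chromosome (100574904 to 100591729, plus). Mag (30899176 to 30914873, minus) and Prx (27499324 to 27520214, plus) both lie on chromosome 7, and Ncmap lies on chromosome 4 (135369576 to 135398227, minus). All 8 genes are annotated as protein-coding. Exons of Cnp overlap those of Dnajc7 on the opposite strand, which stood at 72.2, 67.5 and 66.4 CPM (reads of a gene for each 1000000 counted), with libraries given here and below in the order young, aged control, aged EPA. Exons of Prx overlap those of the antisense gene Gm15541, at 0.139, 0.143 and 0.265 CPM. Whether the counting used strand is not given in the sources used here, so reads from such overlaps cannot be assigned with certainty.

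Promoter sequence was searched for 6 of the 8 genes (all but Sox10 and Mbp) in RefSeq windows on GRCm38.p6, and 12 start sites were covered. The 250 bases before each start were searched on both strands for ACAAAG and ACAATG, cores bound by SOX factors, and for GTGGGNG, a core bound by EGR factors. No match in these genes overlapped another. The windows below are 1 for each of the 4 genes that hold a match, with the first of Pmp22, which differed most between young and aged libraries, shown for comparison. They run 5′ to 3′ on the strand of the gene, end before the first annotated exon, and have the match, where there is one, in capitals.
Cnp, chr11:100574689-100574903, plus strand: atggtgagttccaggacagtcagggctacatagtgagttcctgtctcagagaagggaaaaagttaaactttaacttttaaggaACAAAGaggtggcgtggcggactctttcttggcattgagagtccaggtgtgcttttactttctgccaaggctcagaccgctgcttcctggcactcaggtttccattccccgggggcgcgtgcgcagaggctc
Mag, chr7:30914923-30915172, minus strand: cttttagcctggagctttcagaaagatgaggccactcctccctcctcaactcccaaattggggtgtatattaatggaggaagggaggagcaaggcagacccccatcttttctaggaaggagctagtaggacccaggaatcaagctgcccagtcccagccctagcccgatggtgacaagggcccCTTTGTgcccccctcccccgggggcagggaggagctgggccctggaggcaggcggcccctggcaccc
Prx, chr7:27499074-27499323, plus strand: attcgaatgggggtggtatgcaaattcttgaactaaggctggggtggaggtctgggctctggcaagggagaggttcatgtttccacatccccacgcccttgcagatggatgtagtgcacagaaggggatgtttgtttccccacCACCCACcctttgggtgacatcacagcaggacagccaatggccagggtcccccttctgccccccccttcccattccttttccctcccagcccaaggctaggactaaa
Ncmap, chr4:135398228-135398477, minus strand: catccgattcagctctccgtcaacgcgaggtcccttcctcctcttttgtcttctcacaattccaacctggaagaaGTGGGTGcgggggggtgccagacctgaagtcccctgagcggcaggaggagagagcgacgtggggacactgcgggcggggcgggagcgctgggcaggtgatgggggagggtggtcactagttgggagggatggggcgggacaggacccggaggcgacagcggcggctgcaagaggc
Pmp22, chr11:63128732-63128981, plus strand: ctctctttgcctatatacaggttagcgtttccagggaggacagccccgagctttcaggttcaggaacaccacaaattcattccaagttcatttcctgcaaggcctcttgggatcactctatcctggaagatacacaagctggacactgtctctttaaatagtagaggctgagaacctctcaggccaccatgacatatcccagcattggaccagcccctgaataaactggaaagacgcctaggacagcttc
A SOX core was found in 3 of the 12 windows: that of Cnp (167 bases before the start) and 2 overlapping ones of Mag that hold the same match (reverse strand, read here as CTTTGT, 67 bases before the start shown and 126 before another). Of all 32851 windows of this length, 25.2% hold one of the SOX cores. The EGR core was also found in 3 of the 12 windows, those of Prx (107 bases before the start, reverse strand), Ncmap (175 bases before) and that other start of Mag (35 bases before), against 28.1% of all windows. None of the 3 motifs was found before the 4 starts of Pmp22 or the start of S100b, which says nothing of binding elsewhere. Pmp22 has alternative promoters, one of them used mainly by myelinating Schwann cells, and the deposited gene totals sum over all of them.

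The libraries were of nearly equal depth, with 57386394, 57622886 and 55969822 recovered counts, so 3 counts correspond to 0.0523, 0.0521 and 0.0536 CPM. The label of the gene set was checked on other markers. The neuregulin receptor gene Erbb3 stood at 3.77, 3.28 and 3.83 CPM and the periaxin partner gene Drp2 at 13.2, 5.50 and 5.10 CPM, so Schwann cell transcripts were present in each library. Of 8 markers of oligodendrocytes, the myelin cells of the central nervous system, 5 (Mog, Mobp, Opalin, Olig2 and Ermn) had no count in any library. Of the other 3, Aspa, an aspartoacylase gene, had 370, 429 and 310 counts (6.55, 7.47 and 5.53 CPM; log2 -0.37 in aged EPA against aged control), Hapln2 had 8, 9 and 10 counts and Myrf 3, 0 and 3. Of 12 genes of neurons and their axons, 4 had no count in any library, and the neurofilament genes Nefl, Nefm and Nefh had at most 7 counts in a library. The 2 that were abundant enough to be compared were Stmn2, which encodes a tubulin-binding protein, with 429, 351 and 353 counts, and the ubiquitin hydrolase gene Uchl1, with 242, 477 and 384 counts. Uchl1 stood higher in aged control than in young by a log2 change of 0.83, and Stmn2 differed by -0.28. Whether the counts of Uchl1 and Stmn2 came from axons was not tested. Muscle fibre transcripts led throughout, with Acta1 at 31000.6, 36147.8 and 35588.6 CPM.

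Levels can be compared between genes only per length, here as mean CPM over the 3 libraries per kilobase of merged annotated exons. Pmp22 stood far above the rest at 24.9 CPM per kilobase. Cnp followed at 3.802, Prx at 2.83, S100b at 2.51, Mbp at 1.86, Ncmap at 1.28, Sox10 at 1.20 and Mag at 0.333 CPM per kilobase. Within this order S100b and Prx exchanged places in aged EPA (2.92 and 2.74 CPM per kilobase), as did Sox10 and Ncmap (1.43 and 1.32). Merged exons join all annotated transcripts of a gene, which lowers this value for genes with many, such as Mbp with 8469 bases. All 8 genes had a mean of at least 1 CPM and were compared, Mag with the lowest mean at 1.36 CPM.

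All 8 genes stood higher in aged EPA than in aged control, with changes between 0.05 and 0.46 on the log2(CPM + 1) scale, while 44.2% of the 12966 compared genes did (55.8% stood lower). Their median change was 0.20, against -0.03 over all compared genes. The share of compared genes standing higher depends on scaling. It was 53.0% with recovered counts over own totals and 49.9% with trimmed-mean scaling, and all 8 members stayed higher under both. The lists below were set against the 44.2% from deposited CPM only. In aged control against young the genes divided: Pmp22, Mbp and S100b stood higher (47.5% of compared genes did), Sox10, Ncmap, Mag, Cnp and Prx lower (52.4% did), with a median of -0.15 against -0.01. Aged EPA was the highest library for 6 of the 8 genes (24.9% of compared genes), and aged control the lowest for 5 (30.3%). Young was the highest library for Prx and Ncmap (41.4%), and young, aged control, aged EPA was the rising order for Pmp22, Mbp and S100b (13.8%). Aged EPA against young had 6 members higher (43.3% of genes) and 2 lower (56.7%). With recovered counts over own totals 7 members stood higher there (49.1% of genes). In whole-muscle RNA, fewer Schwann cells and less RNA per Schwann cell cannot be told apart. Both comparisons share the aged control library, so an unusual value there enters both with opposite sign.

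**Figure D1:**
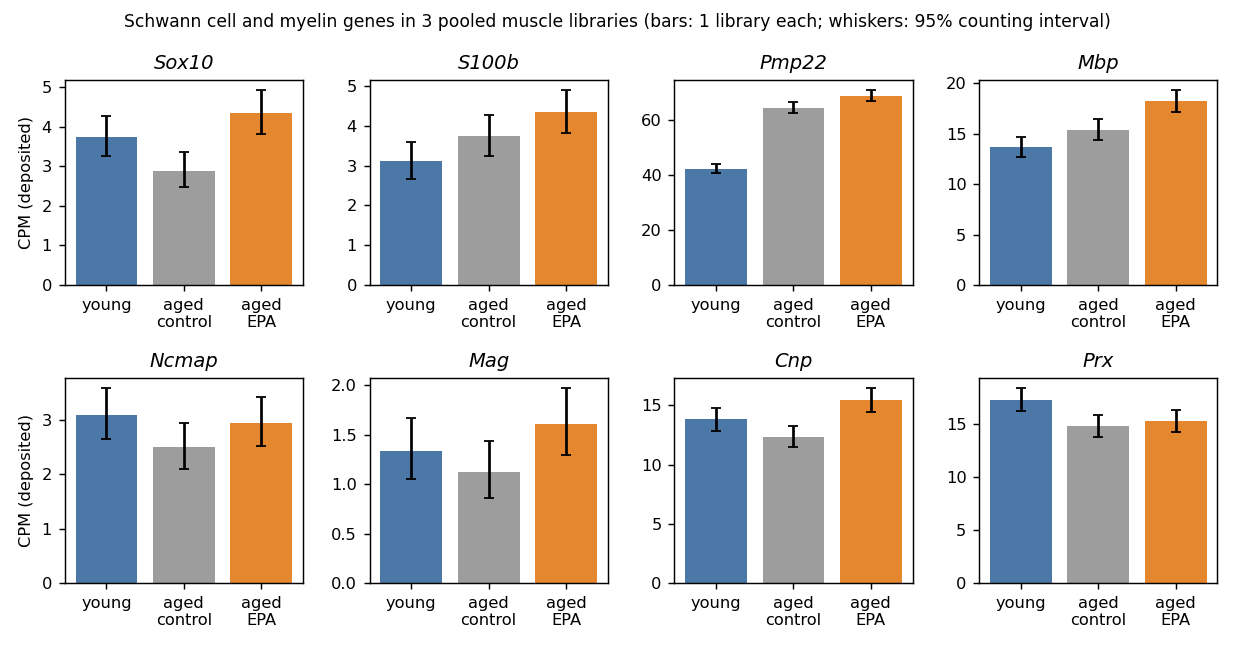
Deposited CPM (vertical axes, from 0, scaled per gene) of the 8 genes in each of the 3 libraries, 1 bar per library, with whiskers for the exact 95% Poisson interval of its count. Pmp22 goes from 42.3 to 64.6 to 69.0 CPM, while the aged control bar is the lowest for Sox10, Ncmap, Mag, Cnp and Prx.

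Sox10, the lineage factor, had the widest difference between aged EPA and aged control. It stood at 3.74 CPM (211 counts) in young, 2.89 CPM (166 counts) in aged control and 4.35 CPM (244 counts) in aged EPA. Aged control was thus the low library and aged EPA the high one. Per library total, the count in aged EPA was 1.513-fold that in aged control (95% interval 1.24 to 1.85), and the count in aged control was 0.784-fold that in young (0.635 to 0.965). Aged EPA against young gave 1.19-fold (0.982 to 1.43), an interval that spans 1. All such intervals are exact Clopper-Pearson intervals of the ratio of 2 counts. They cover counting error only, not differences between mice or library preparations, and reads without molecular identifiers are not independent molecules.

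S100b, which encodes a calcium-binding protein used as a Schwann cell marker, stood at 3.10, 3.74 and 4.33 CPM (179, 211 and 249 counts). The order was young, aged control, aged EPA from low to high. The step from young to aged control was 1.17-fold (0.957 to 1.44), within counting error, and that from aged control to aged EPA 1.21-fold (1.01 to 1.47). Both ratios use each library's own total, which gives 3.12, 3.66 and 4.45 CPM rather than the deposited values. Young and aged EPA lay 1.43-fold apart (1.17 to 1.74).

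Among genes of compact myelin, Pmp22 encodes a membrane protein whose gene dosage underlies inherited neuropathies. Its values were 42.3, 64.6 and 69.0 CPM (2441, 3647 and 3964 counts). Aged control exceeded young 1.49-fold (1.41 to 1.57), and aged EPA exceeded aged control 1.12-fold (1.07 to 1.17), so that both aged libraries lay well above young. Mbp, the basic protein that holds the cytoplasmic membrane faces together, stood at 13.6, 15.4 and 18.2 CPM (770, 883 and 1021 counts). It followed the order of Pmp22 with smaller first and larger second step, at 1.14-fold (1.04 to 1.26) and 1.19-fold (1.09 to 1.304). Pmp22 and Mbp were the 2 genes whose 3 libraries were all separated beyond counting error. The share of all compared genes separated in this way was not computed.

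Cnp, Mag, Ncmap and Prx, the members whose proteins lie in noncompact myelin, had their lowest value in aged control. That order is given for these members only, not for noncompact myelin genes as a class. Cnp, a cyclic nucleotide phosphodiesterase that keeps cytoplasmic channels open in myelin, stood at 13.8, 12.3 and 15.4 CPM (780, 711 and 869 counts). Aged EPA was the high library, 1.26-fold above aged control (1.14 to 1.39) and 1.14-fold above young (1.04 to 1.26), whereas aged control against young (0.908-fold, 0.819 to 1.01) was within counting error. Mag, the adhesion protein of the membrane facing the axon, had the fewest counts, with 77, 63 and 91 (1.34, 1.12 and 1.61 CPM). Its aged EPA count was 1.49-fold that in aged control, with a wide interval of 1.07 to 2.08, and neither aged library was separated from young.

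Ncmap, which encodes a small protein of noncompact myelin, stood at 3.09, 2.49 and 2.95 CPM (173, 141 and 170 counts). No pair of libraries was separated by counting error for this gene (aged EPA against aged control 1.24-fold, 0.987 to 1.56). Prx, the scaffold that links the outer Schwann cell membrane to the basal lamina, stood at 17.3, 14.8 and 15.3 CPM (969, 836 and 882 counts). Here young was the high library: aged control lay at 0.859-fold of it (0.782 to 0.943). Aged EPA lay at 0.933-fold of young, with an interval that spans 1 (0.851 to 1.02), and the aged libraries were not separated from each other (1.09-fold, 0.987 to 1.20).

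**Figure D2:**
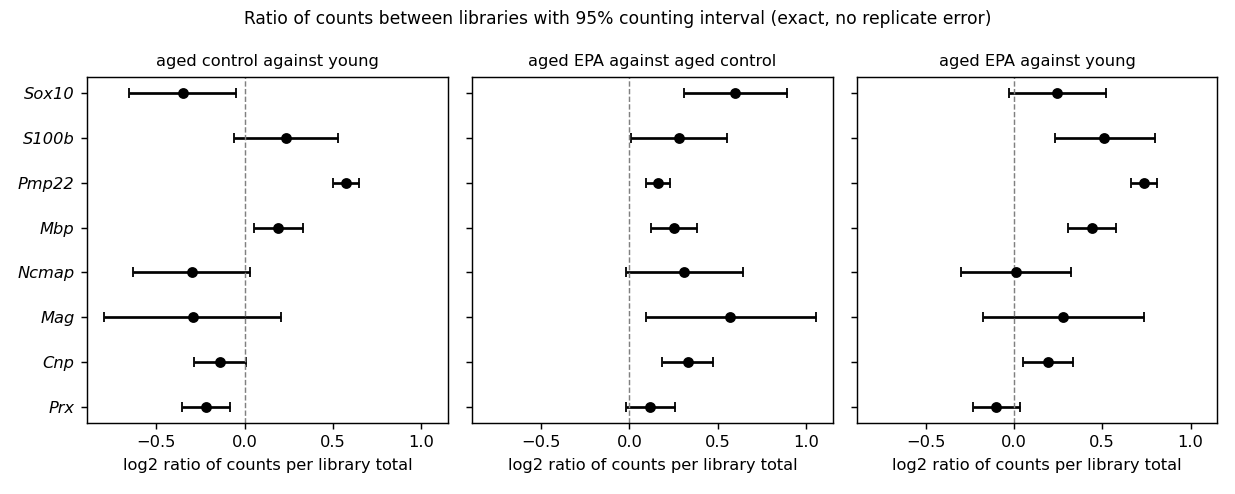
Log2 ratio of counts per library total (horizontal axis) for each gene in the 3 comparisons, with exact 95% counting intervals; the dashed line marks equal levels. In aged EPA against aged control all 8 points lie right of the line and 6 intervals leave it, while in aged control against young 2 intervals lie above it (Pmp22 and Mbp) and 2 below (Sox10 and Prx). The share of all compared genes whose intervals leave the line was not computed.

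The limit used for a call was a log2 change of 0.32 on the CPM + 1 scale. Past it, Sox10 was the single member on the upper side in aged EPA against aged control (background 5.38% of compared genes higher), and none lay on the lower side (background 7.38%). Mag and Cnp, each at 0.30, lay just short of that limit. In aged control against young Pmp22 alone passed it upward (log2 0.60, background 9.13%), and none passed downward (background 10.4%). In aged EPA against young, Pmp22 (0.69), Mbp (0.39) and S100b (0.38) passed it upward (background 7.43%) and none downward (background 11.7%). At 1.5-fold on the same scale, Pmp22 was the 1 member called. It was called higher in aged control against young (2.69% of genes, with 2.55% lower) and in aged EPA against young (2.4%, with 2.96% lower). In aged EPA against aged control 0 were called (1.69% higher, 1.91% lower). The call of Pmp22 in aged control against young rests on deposited CPM. With recovered counts over own totals its log2 change there was 0.56, short of 1.5-fold. Sox10 in aged EPA against aged control, at 0.46 on the CPM + 1 scale, was not called. Its count ratio over own totals, without the added 1 CPM, lay past 1.5-fold (log2 0.60). At 2-fold 0 members were called in any comparison. The shares of all genes at 2-fold were 0.895% higher and 0.841% lower in aged control against young. They were 0.694% and 0.64% in aged EPA against aged control, and 0.802% in each direction in aged EPA against young, which shares a library with both other comparisons. With recovered counts over own totals, 6.74% of genes passed upward and 5.83% downward in aged EPA against aged control. With trimmed-mean scaling these shares were 9.11% and 9.44% in aged EPA against young.

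**Figure D3:**
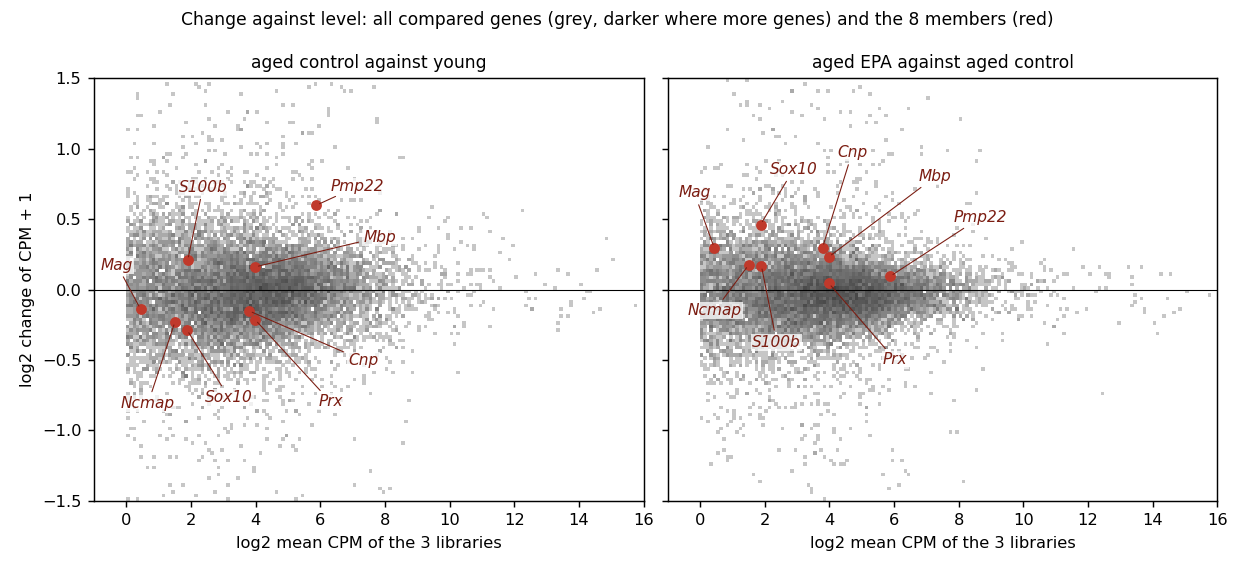
Log2 change of CPM + 1 (vertical axis) against log2 mean CPM (horizontal axis) for aged control against young and aged EPA against aged control; grey squares hold the 12966 compared genes (91 and 74 lie outside the axes), red points the 8 members. Pmp22 at 0.60 is the highest red point of the first panel, and in the second panel all red points lie above 0, from 0.05 for Prx to 0.46 for Sox10.

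Because Pmp22 holds a large part of the counts of these genes, their sum follows it. Summed, the 8 genes came to 98.3, 117 and 131 CPM, of which Pmp22 made up 43.0%, 55.1% and 52.6%. Without Pmp22 the other 7 summed to 56.0, 52.7 and 62.1 CPM. For those 7, aged control lay at 0.949-fold of young (0.903 to 0.998) and aged EPA at 1.21-fold of aged control (1.15 to 1.27).

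Counts per Sox10 count within a library do not depend on how libraries are scaled. For Pmp22 this ratio was 11.6 (10.05 to 13.4) in young, 21.97 (18.8 to 25.8) in aged control and 16.2 (14.3 to 18.6) in aged EPA. For Mbp it was 3.65, 5.32 and 4.18, and for S100b 0.848, 1.27 and 1.02. Mag stood at 0.365 (0.277 to 0.476), 0.380 (0.279 to 0.510) and 0.373 (0.290 to 0.476). These ratios of Mag were nearly equal, but their intervals are wide enough to hold sizeable differences. Prx stood at 4.59, 5.04 and 3.61, Cnp at 3.70, 4.28 and 3.56, and Ncmap at 0.820, 0.849 and 0.697. All 7 ratios had their highest value in aged control, and all 7 share the Sox10 count of that library, the lowest of the 3.

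**Figure D4:**
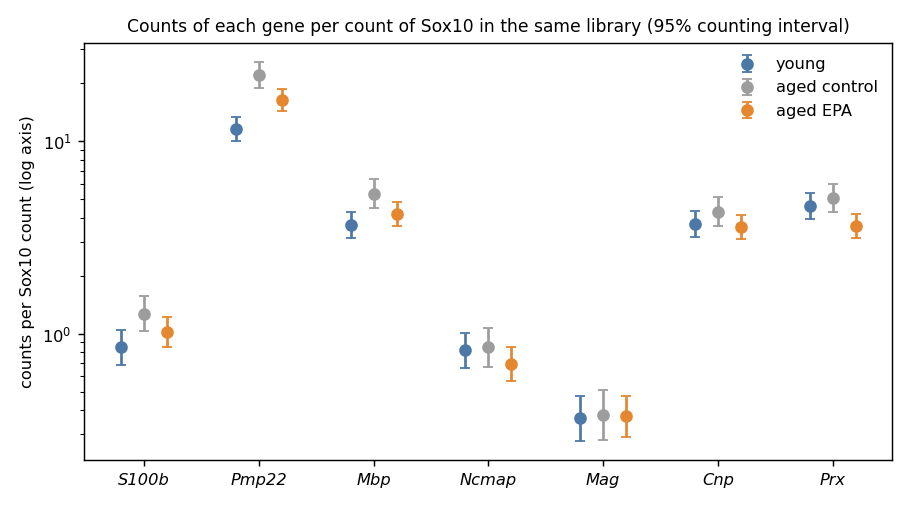
Counts of 7 genes per count of Sox10 in the same library (vertical axis, logarithmic) in young, aged control and aged EPA, with 95% counting intervals. The interval of Pmp22 in aged control (18.8 to 25.8) lies above that in young (10.05 to 13.4), whereas the 3 intervals of Mag overlap almost wholly.

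Of 17 other myelin genes listed, 12 were compared. In aged EPA 7 stood above their aged control level (44.2% of compared genes did) and 5 below it (55.8%), with a median of 0.08. Past the limit 2 stood higher (5.38% of compared genes) and 0 lower (7.38%). Of those 2, the plasmolipin gene Pllp stood at 3.06, 2.91 and 3.94 CPM (log2 0.34). The membrane scaffold gene Mpp6 changed by -0.07 (41.2, 44.1 and 41.99 CPM). In aged control against young, 4 stood higher (47.5% of compared genes did) and 8 lower (52.4%), with a median of -0.07. Past the limit downward lay 3 (10.4% of compared genes). Among them were the adhesion gene Cadm4 at -0.37 (5.73, 4.19 and 5.38 CPM) and Drp2 at -1.13. Drp2, whose protein joins periaxin to dystroglycan at the outer Schwann cell membrane, stood at 13.2, 5.50 and 5.10 CPM (741, 311 and 294 counts). The count in aged control was 0.418-fold that in young (0.365 to 0.478), a wider gap than for any of the 8, and Prx itself lay at 0.859-fold. The connexin gene Gjc3 was the 1 past the limit upward (9.13% of compared genes). Pllp, Cadm4, Drp2 and Gjc3 were picked for mention after their values were seen.

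Transcription factors, signals and receptors of Schwann cell myelination were taken next. Of 20 compared among 23, in aged EPA 8 stood above their aged control level (44.2% of compared genes did) and 12 below it (55.8%). The median was -0.08. Jun stood at 147, 169 and 167 CPM, the early growth response gene Egr1 at 32.5, 61.1 and 56.6 CPM, and the Hippo coactivator gene Yap1 at 47.2, 48.5 and 44.6 CPM; all 3 are also transcribed by other muscle cells. Egr2, the partner of Sox10, stood at 1.11, 1.56 and 1.13 CPM (63, 90 and 64 counts), the reverse of the pattern of Sox10. The interval for aged EPA against aged control, 0.523 to 1.02, spans 1. Nrg1, the axonal growth signal for Schwann cells, had no count in the 3 libraries. Egr2 and Nrg1 were picked for mention after their values were seen.

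Of 12 markers of Schwann cells that do not make myelin, 5 were compared. In aged EPA 1 stood above its aged control level (44.2% of compared genes did) and 4 below theirs (55.8%), with a median of -0.29. Scn7a, a sodium channel gene, stood at 20.9, 19.9 and 18.6 CPM. Ncam1, an adhesion gene that muscle fibres also transcribe, stood at 8.53, 10.03 and 6.40 CPM, and the matrix gene Matn2 at 7.995, 9.44 and 6.76 CPM. Ncam1 (log2 -0.58) and Matn2 (-0.43) passed the limit downward (7.38% of compared genes).

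The next 3 lists are given for aged EPA against aged control, where 44.2% of all compared genes stood higher and 55.8% lower. Node and paranode genes had 3 of 7 compared (12 listed) higher and 4 lower (median -0.04). Among them, the ankyrin gene Ank3 stood at 59.8, 69.5 and 71.5 CPM. Basal lamina genes, which muscle fibres and vessels also transcribe, had 5 of 12 higher and 7 lower (median -0.06). Dag1, which encodes dystroglycan, the laminin receptor of Schwann cells and muscle fibres, stood at 302, 299 and 148 CPM, low in aged EPA only. Genes of cholesterol and sphingolipid synthesis, which myelin requires and other cells share, had 2 of 14 higher and 12 lower (median -0.13), with Fdft1 at 56.0, 55.4 and 52.5 CPM.

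**Figure D5:**
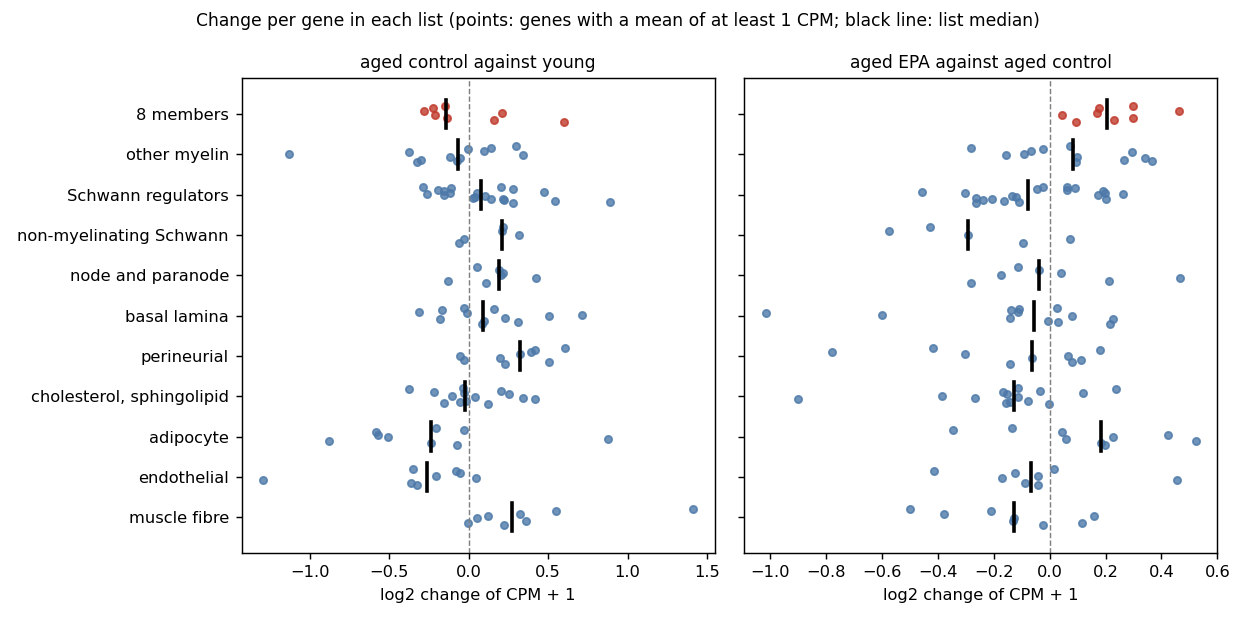
Log2 change of CPM + 1 (horizontal axes) of each compared gene, by list (rows), in aged control against young and aged EPA against aged control; black bars mark list medians. The 8 members have the highest median of the lists drawn in the second panel (0.20), followed by adipocyte markers (0.18), and a median below 0 (-0.15) in the first.

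Markers of other cells that transcribe some of these genes were set beside them. Of all compared genes, 44.2% stood higher in aged EPA than in aged control. In aged control against young 47.5% stood higher and 52.4% lower. Of 9 adipocyte markers, 7 stood above their aged control level in aged EPA (median 0.18), and 8 lower in aged control than in young. None was at 0, and their summed level was 1230, 977 and 954 CPM. Most of that sum is Lpl, at 797, 690 and 628 CPM, so it does not follow the direction of most of the markers. Of 8 endothelial markers, 2 stood above their aged control level in aged EPA and 7 lower in aged control than in young, with sums of 516, 434 and 393 CPM and none at 0. The part of these cells in the values of S100b, Pmp22, Cnp and Prx was not tested. Perineurial and nerve fibroblast markers had 7 of 9 compared (12 listed) higher in aged control than in young (median 0.33, summed level of the list 104, 132 and 126 CPM), the direction of Pmp22, Mbp and S100b; their part was not tested either. Muscle fibre markers summed to 93103, 107665 and 106316 CPM, with 7 of 8 above their young level in aged control and 2 of 8 above their aged control level in aged EPA. Of 7 macrophage markers 4 stood above that level in aged EPA, of 7 fibroblast markers 1, and of 7 smooth muscle and pericyte markers 0.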

How the data were processed

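RNA was sequenced from 3 pooled muscle libraries. Per the submitters' processing notes, HISAT2 2.1.0, StringTie 1.3.4d and R 3.5.0 were used with GRCm38. The authors deposited CPM per gene, and per the file headers no other value. Every deposited CPM above 0 was a whole count over 1 of 5 divisors (56034275 to 57687235, largest distance from a whole number 3.03e-09) that change from gene to gene, which puts CPM between -2.98% and 2.84% off those over each library's own total.

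Deposited CPM were used as they stood, summed by symbol, and 12966 genes averaging 1 CPM or more were compared as log2 ratios of CPM + 1, called past 0.32. Count ratios used recovered counts over own totals (57386394, 57622886 and 55969822). With 1 library a group there is no test; intervals are exact at 95% and cover counting error only. Exon lengths came from GENCODE M21. Recovery and intervals were tested on simulated data. Python 3.11.15, scipy 1.17.1 and statsmodels 0.14.6 were used.

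The members and lists were chosen with earlier results of these data known. The text names the 8 members, the 3 most abundant genes of a list, the 5 genes of most similar pattern, and others where it says so or as markers of a cell type; some genes of these lists are not reported here. Alternatives were other pseudocounts, filters, scalings, fold limits and subtraction of the trend with length or GC content; leaving out Pmp22 was added after seeing the data.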

Additional observations from a re-analysis of the deposited data

How the results depend on the processing

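In aged EPA against aged control the median of the members stayed above 0 under the 11 alternatives that give one (0.10 to 0.24), and in aged EPA against young likewise (0.11 to 0.27). In aged control against young it lay between -0.19 and 0.01, above 0 only with a mean of at least 5 CPM, which leaves 4 members. That filter also leaves 4 of 4 members above aged control in aged EPA and 3 of 4 above young. The number of members called higher in aged EPA against aged control was 1 by the main rule (5.38% of genes). It was 2 with a pseudocount of 0.1 CPM (7.73% of genes), median-of-ratios scaling (6.4%) or trimmed-mean (TMM) scaling (6.49%). It was also 2 with mitochondrially encoded genes left out (6.31%) or recovered counts over own totals (6.74%). It was 0 with a pseudocount of 5 CPM (2.34%), a mean of at least 5 CPM (3.94%), or a call at 1.5-fold (1.69%) or 2-fold (0.694%). In aged EPA against young, 3 by the main rule (7.43%), it was 1 with a pseudocount of 5 CPM (3.69%) or a call at 1.5-fold (2.4%). At 2-fold it was 0 (0.802%). In aged control against young, 0 were called higher at 2-fold (0.895%). There 1 was called lower with a pseudocount of 0.1 CPM (13.2% of genes) or without mitochondrially encoded genes (12.9%). The cause of these shifts near the limit was not tested. Recovered counts over own totals moved Pmp22 in aged EPA against aged control from 0.09 to 0.16 and made aged EPA the highest library for Ncmap (log2 0.01 against young). All count ratios use own totals, and their intervals were not computed over the divisors of the deposited CPM. Intervals that end near 1 could change sides with those divisors. Examples are S100b in aged EPA against aged control and Prx in aged EPA against young. With the length trend subtracted the median in aged EPA against aged control was 0.23, and without Pmp22 also 0.23. No paired analysis was possible because each group is 1 library. Mag, with 63 to 91 counts, has the widest counting interval.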

Other observations

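Some genes of myelinated nerve had too few counts to be compared or lay outside the text above, and their values are given without a test. Pmp2, which encodes a fatty acid-binding protein of peripheral myelin, had 12 counts in young, 11 in aged control and 39 in aged EPA, so that aged EPA exceeded aged control 3.65-fold (95% counting interval 1.83 to 7.90). Gjb1, the gap junction gene of noncompact myelin, had 35, 22 and 49 counts, with aged EPA 2.29-fold above aged control (1.36 to 3.98). Cntnap1, the axonal paranode gene, had 42, 77 and 125 counts so that aged EPA was the highest library and young the lowest. Dhh, the hedgehog signal from Schwann cells to the perineurium, had 105, 169 and 110 counts, high in aged control only. These 4 genes were picked after their values were seen.

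The genes whose pattern over the 3 libraries came closest to the median pattern of the 8 members, by Euclidean distance of centred log2(CPM + 1), were Mettl26 (distance 0.0334, 14.9, 13.8 and 17.1 CPM), Bckdha (0.0335), Lrig3 (0.0336), Aldh16a1 (0.0358) and Morn4 (0.0366). Of 9133 candidates (genes averaging 5 CPM or more, gene models named only by a clone or number left out), 42 lay within 0.05, and 3 libraries allow few distinct patterns.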
